A study of Homo sapiens with 6 samples.

Results

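The replication-independent histone variants are histones whose genes lie outside the replication-dependent histone clusters. The 9 genes described here, of 10 chosen by symbol, were each the single listed gene of that name out of 63129 genes listed for mitotic fibroblasts with and without activated Ras. They encode both H2A.Z histones (H2AFZ and H2AFV), H2A.X (H2AFX), H2A.J (H2AFJ), both macroH2A histones (H2AFY and H2AFY2), histone H3.3 from a pair of genes (H3F3A and H3F3B), and the linker histone H1X (H1FX). Gene expression was measured by RNA-seq of poly(A) RNA in 6 libraries of ERRAS cells, which are IMR90 primary human fibroblasts of limited lifespan, entered as a cell line in the labels, that stably carry H-RasV12 fused to the ligand-binding domain of the estrogen receptor. Control mitotic cells (3 libraries) carried the construct and were left uninduced, whereas Ras-induced mitotic cells (3 libraries) had RasV12 switched on with 100 nM tamoxifen, per the labels, for 4 days. The study's methods instead name hydroxytamoxifen, an active form of the drug, with its dose as a mass per volume, so that the stated dose differs between these sources. Elsewhere the study uses both names for the same treatment, and a titration there gives hydroxytamoxifen at up to 100 nM. Both groups were then treated with 1 μM DME (dimethylenastron), an inhibitor of the mitotic kinesin Eg5 that arrests cells in mitosis, and the unattached mitotic cells were washed off and collected. The comparison asked how activated Ras alters the transcripts of cells arrested in mitosis. No source used here says that a vehicle was given to the control cells, so the induction and the agent that induces it cannot be told apart.

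Most histone protein is made in S phase from clustered genes whose transcripts end in a stem-loop and not in a poly(A) tail. Variant histones are made from separate genes with polyadenylated transcripts throughout the cell cycle, and dedicated chaperones and remodelers place them in chromatin outside replication. In fibroblasts that enter senescence, H2A.J, macroH2A and H3.3 are known as constituents of the altered chromatin, and phosphorylated H2A.X marks sites of DNA damage.

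All 9 genes passed the filter on low values (an average of 1 FPKM or more across the 6 libraries, where FPKM is a fragment number corrected for the length of the transcript and the size of the library), and none was altered in Ras-induced mitotic cells at an adjusted p of 0.05 in the limma fit over 13993 genes. Altered genes made up 16.7% of all tested genes, 11.0% being higher and 5.67% lower. At an unadjusted p under 0.05, limma picked 3 of the 9 (H2AFJ, H2AFX and H3F3B), against 33.6% of all tested genes. The log2 differences, Ras-induced minus control on the log2(FPKM + 1) scale, ran from -0.32 for H2AFX to 0.38 for H2AFJ, with 6 estimates above 0 and 3 below; of the 6, H2AFZ and H2AFY2 lay below 0 after quantile normalization and H2AFY2 also after upper quartile scaling. Their median was 0.11, beside 0.10 over all tested genes. The Ras-induced and control libraries did not overlap for 2 of the 9, both higher (H2AFJ and H3F3B), against 39.9% of all tested genes, 27.1% in that direction. Of 5 ratios between variants taken within each library, 3 did not overlap between the groups, all of them among H2AFZ, H2AFV, H2AFX and H2AFJ. No share over all pairs of genes was computed for ratios, and the pair of H2AFJ and H2AFX sets the highest of the 9 differences against the lowest.

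Facts of the whole data set bear on these values. FPKM carries no absolute depth, and the relative depth of the libraries, read from the steps between low values, ran from 0.849 to 1.17 of the first control library. HRAS was 1164 FPKM ± 20.3 (SD, n = 3) in control and 1586 ± 226.5 in Ras-induced cells, a log2 difference of 0.44 (SE 0.11, limma adjusted p = 0.0431, 0.0193 to 0.166 over 14 alternatives), with reads of the gene and of the construct counted together. The scaling of the libraries sets the split of altered genes, with 1543 higher and 793 lower as deposited, 1044 and 1109 after quantile normalization, and 921 and 1101 after upper quartile scaling, and those scalings moved the median of all genes from 0.10 to 0.01 and 0.0047. Of 8 fibroblast markers all were detected, 2 of them altered and lower (COL1A2 and THY1). COL1A1 (log2 difference -1.43, limma adjusted p = 0.0501) and COL3A1 (-1.25, limma adjusted p = 0.0553) lay just outside the threshold. These 4 were lower without overlap, against 12.8% of all tested genes, and the rest overlapped. The summed level of the 8 was 5450 to 6330 FPKM in control and 4020 to 5370 in Ras-induced cells. The 4 leukocyte and 3 endothelial markers were under 1 FPKM in every library, and the epithelial markers summed to 17.0 to 32.8 FPKM in control and 19.6 to 21.2 in Ras-induced cells, nearly all from KRT5 and KRT14. Of 10 mitotic markers 5 were altered, all lower (their summed level was 2150 to 2180 FPKM in control and 1730 to 1950 in Ras-induced cells), and of 6 S phase markers 5 could be tested and 2 were altered, both lower (394 to 411 and 280 to 335 FPKM). The labels give a mitotic index over 90% by microscopy for the collected cells of both groups. The part of these marker shifts in the values of the histone and deposition genes was not tested, and in bulk RNA fewer cells of a type and less RNA per cell cannot be told apart. Control replicate 3 was the lowest control library for 9 of the 9 variants, against 46.2% of all tested genes, and Ras-induced replicate 2 was the highest of its group for 7 of 9, against 35.2%. The study describes the experiment as carried out in independent repeats, while the columns do not tie a library to a repeat, and the p-values measure the spread between these 3 libraries of each group.

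By level, the variants span the range from among the most abundant transcripts of the cells to a middling one. In control cells the order of mean FPKM was H2AFZ, H3F3B, H2AFV, H2AFX, H2AFY, H3F3A, H1FX, H2AFJ and H2AFY2. The ranges of neighbours overlapped for H2AFZ and H3F3B, for H2AFV and H2AFX and for H3F3A and H1FX. H2AFZ and H3F3B stood at percentile 99.3 of all tested genes in control cells, and H2AFY2 at 44.2. In Ras-induced cells H3F3B came before H2AFZ, with overlapping ranges, the other places were the same, and the remaining neighbours with overlapping ranges were H2AFX and H2AFY. The plot of levels by library shows each of these values.

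**Figure D1:**
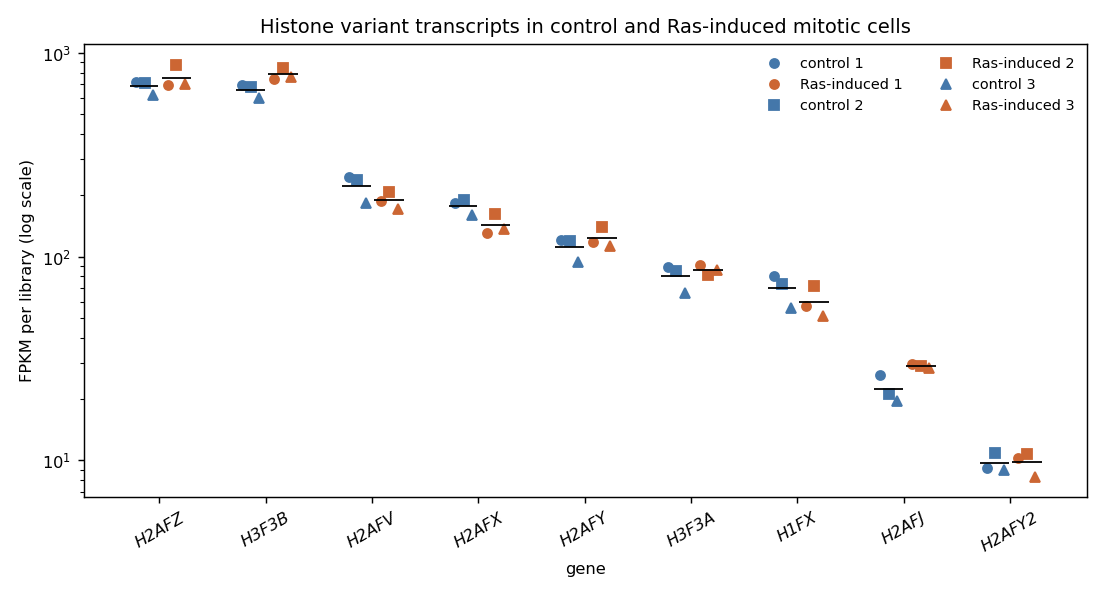
FPKM (vertical log axis) of 9 histone variant genes (horizontal axis) in 3 control (blue) and 3 Ras-induced (orange) mitotic libraries, with 1 point for each library and black lines at the group means. H2AFZ and H3F3B lie highest and H2AFY2 lowest, and the groups separate for H2AFJ and H3F3B.

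The promoters of the genes that the results turn on are printed because a shared feature of sequence, not used to choose the genes, sets them beside each other. Each is the 250 bases before a transcription start, 5′ to 3′ on the gene's strand, from RefSeq on GRCh38.p14, and capitals mark CCAAT or, for the other strand, ATTGG, the box bound by NF-Y. They lie at chr11:119095466-119095715 on the minus strand (H2AFX), chr4:99950276-99950525 on the minus strand (H2AFZ), chr12:14774155-14774404 on the plus strand (H2AFJ) and chr17:75779780-75780029 on the minus strand (H3F3B).
H2AFX: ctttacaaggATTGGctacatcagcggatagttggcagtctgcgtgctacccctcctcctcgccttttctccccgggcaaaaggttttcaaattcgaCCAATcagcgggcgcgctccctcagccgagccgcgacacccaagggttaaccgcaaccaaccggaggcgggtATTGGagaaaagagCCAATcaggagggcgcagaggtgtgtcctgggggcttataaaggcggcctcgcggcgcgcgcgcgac
H2AFZ: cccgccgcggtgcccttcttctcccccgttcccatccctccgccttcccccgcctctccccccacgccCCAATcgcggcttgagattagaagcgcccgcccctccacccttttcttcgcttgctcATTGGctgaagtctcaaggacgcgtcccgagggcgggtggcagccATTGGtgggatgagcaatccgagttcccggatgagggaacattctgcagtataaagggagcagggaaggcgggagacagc
H2AFJ: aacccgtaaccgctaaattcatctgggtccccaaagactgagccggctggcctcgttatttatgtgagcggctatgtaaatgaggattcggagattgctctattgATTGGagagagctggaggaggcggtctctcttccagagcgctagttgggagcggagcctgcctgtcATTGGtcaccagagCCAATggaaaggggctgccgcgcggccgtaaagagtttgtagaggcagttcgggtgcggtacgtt
H3F3B: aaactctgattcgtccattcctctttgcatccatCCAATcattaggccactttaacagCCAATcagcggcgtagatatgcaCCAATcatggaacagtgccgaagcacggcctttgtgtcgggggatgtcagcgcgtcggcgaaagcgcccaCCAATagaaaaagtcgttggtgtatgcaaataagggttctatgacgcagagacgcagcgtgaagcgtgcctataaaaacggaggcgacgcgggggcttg

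RefSeq held 13 such promoters for the 9 genes. CCAAT or ATTGG occurred at least 3 times in 5 of the 13 (4 times each for H2AFX, H2AFV and H3F3B, 3 times each for H2AFZ and H2AFJ), against 2.92% of 35093 promoters of the same length. At least 1 copy was present in 9 of 13, against 32.0% of all promoters, with none before the single starts of H1FX and H2AFY2. TATAAA or TTTATA, the core of the TATA box, was present in 4 of 13 (H2AFX, H2AFZ, H3F3B and H1FX), against 10.7% of all promoters. TTTGAA or TTCAAA, the core of the CHR element of cell cycle genes, was present in 1 of 13 (H2AFX), against 13.3%. Each motif was searched on both strands, its matches did not overlap those of the other motifs in the printed promoters, and a match describes letters in the window and not a bound site. The genes with 3 or more CCAAT boxes had log2 differences on both sides of 0, from -0.32 for H2AFX to 0.38 for H2AFJ.

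H2A.Z is the H2A variant of promoter nucleosomes, where SRCAP and EP400 complexes place it. H2AFZ (ENSG00000164032, now H2AZ1, GRCh37 chr4:100869243-100871512, minus strand, 5 exons) had 722, 708.5 and 624 FPKM in control cells and 694, 876 and 699.7 in Ras-induced cells. The groups overlapped, with Ras-induced replicate 2 above all others. The log2 difference was 0.14 (SE 0.12, 95% interval -0.14 to 0.42, limma adjusted p = 0.451). H2AFV (ENSG00000105968, now H2AZ2, chr7:44866390-44887686, minus strand, 5 exons), which encodes the second H2A.Z protein, had 245, 238 and 182.5 FPKM in control and 187, 208 and 172 in Ras-induced cells. Controls 1 and 2 lay above every Ras-induced library, and control 3 lay among them. The log2 difference was -0.22 (SE 0.14, interval -0.55 to 0.10, limma adjusted p = 0.295), and without control replicate 3 it was -0.36 (limma adjusted p = 0.0653).

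Set against each other within a library, where scaling between libraries drops out, the H2A.Z genes separated by group. The ratio of H2AFZ to H2AFV was 2.94, 2.97 and 3.42 in control and 3.71, 4.22 and 4.08 in Ras-induced cells. Every Ras-induced ratio lay above every control ratio, and the mean was 28.7% higher. On the log2 scale the ratio was 1.63 ± 0.12 (SD, n = 3) in control and 2.00 ± 0.10 in Ras-induced cells, a difference of 0.36 (SE 0.09). The exact two-sided permutation p was 0.1, the smallest that 3 libraries against 3 can give, and 0.2 after adjustment over the 6 pairs tested, so that no ratio could pass a threshold of 0.05. The longest identical run of the H2AFZ and H2AFV transcripts was 23 bases, and no 75-base window was shared.

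H2A.X is the variant that ATM, ATR and DNA-PK phosphorylate next to DNA breaks, and its single-exon gene can give transcripts with and without a poly(A) tail. H2AFX (ENSG00000188486, now H2AX, GRCh37 chr11:118964584-118966175, minus strand) had 184, 190.3 and 159.8 FPKM in control and 131, 161 and 136 in Ras-induced cells. The groups met only where Ras-induced replicate 2 (161.0) lay just above control replicate 3 (159.8). The means were 178 ± 16.1 and 142.5 ± 16.2 (SD, n = 3 each). The log2 difference was -0.32 (SE 0.11, interval -0.59 to -0.06, limma adjusted p = 0.0957). It was below 0 in 14 of 14 alternatives, whose adjusted p ran from 0.0225 to 0.241. The gene was altered, and lower, in 3 of them: after quantile normalization (-0.39, limma adjusted p = 0.029), after upper quartile scaling (-0.43, limma adjusted p = 0.0354) and after a correction for transcript length (-0.38, limma adjusted p = 0.0225). The share of all tested genes altered and lower in those fits was 7.93%, 7.87% and 7.30%. Mitotic and S phase markers were also lower in the Ras-induced libraries, as given above, and their part in the H2AFX values was not tested.

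Relative to H2AFZ, H2AFX kept the replicates close together. The ratio of H2AFX to H2AFZ was 0.255, 0.269 and 0.256 in control and 0.188, 0.184 and 0.194 in Ras-induced cells. No Ras-induced ratio reached a control ratio, and the mean was 27.3% lower (log2 ratio -1.94 ± 0.04 and -2.41 ± 0.04, a difference of -0.46 with SE 0.03). The exact two-sided permutation p was again 0.1 (adjusted 0.2). Leaving out each library in turn moved the difference from -0.48 to -0.44, the narrowest range of the 5 pairs described.

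H2A.J is a variant of mammals that accumulates in senescent fibroblasts. H2AFJ (ENSG00000246705, now H2AJ, GRCh37 chr12:14927339-14930936, plus strand, 1 exon in its canonical transcript) had 26.2, 21.1 and 19.5 FPKM in control and 29.6, 29.1 and 28.4 in Ras-induced cells. The groups did not overlap, and the Ras-induced libraries lay closer together (29.0 ± 0.600) than the control libraries (22.3 ± 3.53). The log2 difference of 0.38 was the largest of the 9 genes in the upward direction (SE 0.12, interval 0.10 to 0.66, limma adjusted p = 0.0718, 0.0347 to 0.185 over 14 alternatives). It was called in 1 alternative, without control replicate 1 (0.50, limma adjusted p = 0.0347, where 5.25% of all tested genes were altered and higher). The ratio of H2AFJ to H2AFX was 0.143, 0.111 and 0.122 in control and 0.227, 0.181 and 0.209 in Ras-induced cells. These did not overlap either, and the mean was 64.4% higher in Ras-induced cells (log2 ratio -3.01 ± 0.19 and -2.29 ± 0.17, a difference of 0.72 with SE 0.14, exact two-sided permutation p = 0.1, adjusted 0.2). This pair shares H2AFX with the pair above, so they are not independent.

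**Figure D2:**
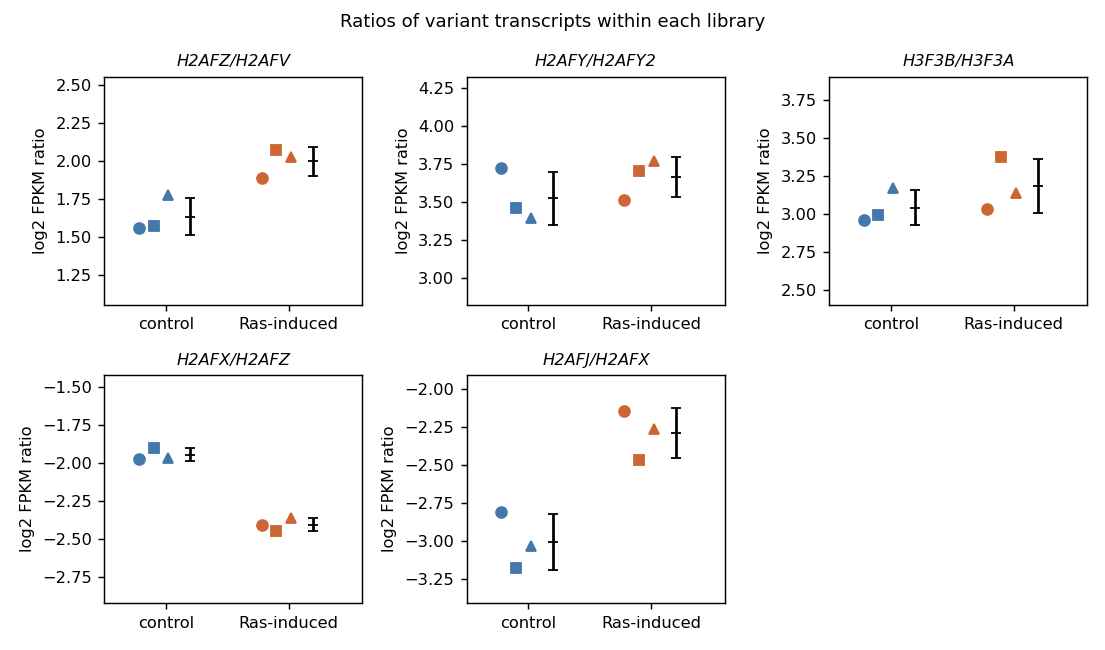
Log2 ratio of FPKM for 5 pairs of variants in 3 control (blue) and 3 Ras-induced (orange) mitotic libraries, with 1 point for each library and, in black, the group mean with its SD. The groups separate for H2AFZ/H2AFV, H2AFX/H2AFZ and H2AFJ/H2AFX and overlap for the other 2 pairs.

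MacroH2A histones carry a large non-histone domain and are linked to silent chromatin. H2AFY (ENSG00000113648, now MACROH2A1, GRCh37 chr5:134670071-134735604, minus strand, 9 exons) had 120.4, 119.8 and 93.9 FPKM in control and 117, 139.6 and 113 in Ras-induced cells, which overlapped. Its log2 difference was 0.15 (SE 0.13, interval -0.16 to 0.46, limma adjusted p = 0.458). H2AFY2 (ENSG00000099284, now MACROH2A2, chr10:71812300-71872038, plus strand, 9 exons), the less expressed macroH2A, had 9.12, 10.9 and 8.945 FPKM in control and 10.3, 10.7 and 8.30 in Ras-induced cells. The values of the groups lay on top of each other, with a log2 difference of 0.01 (interval -0.30 to 0.32, limma adjusted p = 0.961). The ratio of H2AFY to H2AFY2 was 13.2, 11.0 and 10.5 in control and 11.4, 13.0 and 13.6 in Ras-induced cells, a log2 difference of 0.14 (SE 0.13, exact two-sided permutation p = 0.3, adjusted 0.3). H2AFY2 overlaps AIFM2 on the opposite strand by 12 bases and H2AFY overlaps an antisense gene at 0.268 FPKM in control by 175 bases. The labels do not say that the library kit kept strand, so reads there cannot be assigned.

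By their own FPKM, 1 of the 6 H2A variants (H2AFJ) did not overlap between the groups, against 39.9% of all tested genes. As shares of the summed FPKM of the 6, 5 did not overlap, a measure for which no share over all genes was computed. H2AFZ held 55.8% ± 1.29 (SD, n = 3) in control and 60.4% ± 1.09 in Ras-induced cells. H2AFV held 18.0% ± 1.09 and 15.1% ± 0.767. H2AFX held 14.5% ± 0.376 and 11.4% ± 0.304. H2AFY (9.04% ± 0.367 and 9.88% ± 0.146) and H2AFJ (1.81% ± 0.188 and 2.34% ± 0.263) were both higher without overlap, and H2AFY2 overlapped (0.788% and 0.782%). Shares of 1 pool move together by construction, and no test was run on them.

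H3.3 replaces replicated H3 at active genes, where HIRA places it, and at repeats and telomeres, where DAXX and ATRX do. H3F3B (ENSG00000132475, now H3-3B, GRCh37 chr17:73772515-73781974, minus strand, 4 exons) had 692, 678 and 602 FPKM in control and 748, 841 and 762 in Ras-induced cells. Each Ras-induced library lay above each control library. The log2 difference was 0.26 (SE 0.09, interval 0.04 to 0.47, limma adjusted p = 0.1, 0.0731 to 0.271 over 14 alternatives), and after quantile normalization it was 0.11 (interval -0.02 to 0.25, limma adjusted p = 0.235). H3F3A (ENSG00000163041, now H3-3A, chr1:226249552-226259720, plus strand, 4 exons), which encodes the same protein, had 88.7, 85.2 and 66.6 FPKM in control and 91.2, 80.8 and 86.4 in Ras-induced cells. Only control replicate 3 stood apart from the rest. The log2 difference was 0.11 (SE 0.12, interval -0.18 to 0.40, limma adjusted p = 0.563), and it was -0.02 without control replicate 3.

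The H3F3A level is uncertain because a processed copy shares its sequence. H3F3AP4 was listed at 41.8, 40.7 and 28.9 FPKM in control and 41.5, 33.6 and 42.0 in Ras-induced cells, or 41.5% to 48.6% of H3F3A in the same library. Its transcript holds an identical run of 409 bases with that of H3F3A, and 33.8% of the 75-base windows of H3F3A occur in it. H3F3A and H3F3B share no such window, their longest identical run being 14 bases. H3F3B supplied 89.2% ± 0.758 of the summed H3.3 FPKM in control and 90.1% ± 1.07 in Ras-induced cells, which overlapped, and the ratio of H3F3B to H3F3A differed by 0.14 on the log2 scale (SE 0.12, exact two-sided permutation p = 0.3, adjusted 0.3).

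Linker histones bind where DNA enters and leaves the nucleosome, and H1X is a divergent member of that family. H1FX (ENSG00000184897, now H1-10, GRCh37 chr3:129033614-129035129, minus strand, 1 exon) had 80.5, 73.5 and 56.2 FPKM in control and 57.3, 71.7 and 51.3 in Ras-induced cells. The groups overlapped widely, with a log2 difference of -0.22 (SE 0.17, interval -0.63 to 0.20, limma adjusted p = 0.417), the broadest interval of the 9 genes. It overlaps its antisense gene H1FX-AS1 by 119 bases, which was listed at a mean of 12.2 FPKM in control and 11.6 in Ras-induced cells.

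**Figure D3:**
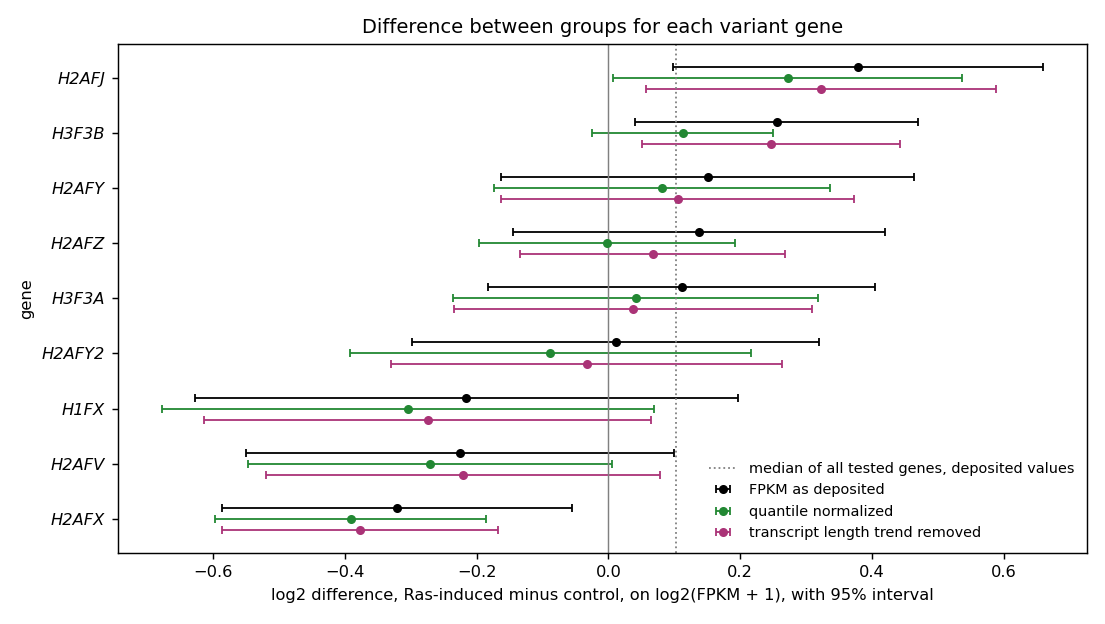
Log2 difference (horizontal axis, Ras-induced minus control on log2(FPKM + 1)) of 9 histone variant genes with 95% intervals from limma, for FPKM as deposited (black), after quantile normalization (green) and with the transcript length trend removed (purple); the dotted line is the median of all tested genes. As deposited, the intervals of H2AFJ (0.10 to 0.66) and H3F3B (0.04 to 0.47) lie above 0 and that of H2AFX (-0.59 to -0.06) below 0.

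Over all tested genes, the deviation of several libraries from their group moved with transcript length. The median log2 deviation of control replicate 3 from the other controls was -0.14 over 2010 genes with transcripts of at most 1000 bases and -0.0073 over 2058 genes with transcripts over 6000 bases. Ras-induced replicate 1 ran from -0.09 to 0.15 over the same classes, and Ras-induced replicate 2 the other way, from 0.12 to -0.16. The variants' transcripts ran from 620 bases for H2AFJ to 3026 for H2AFV, and their deviation in control replicate 3 ran from -0.14 for H2AFY2 to -0.44 for H1FX, each below the median of its length class. Among the variants themselves it did not follow length, with -0.40 for H2AFV (3026 bases) and -0.20 for H2AFZ (866 bases). The ratios set variants of unlike length against each other, most of all H2AFZ (866 bases) and H2AFV (3026 bases). The ratios themselves were not corrected for length, and the part of length in them was not tested. After the correction for transcript length, the log2 differences of single genes were 0.07 for H2AFZ, -0.22 for H2AFV, -0.38 for H2AFX and 0.32 for H2AFJ. Without control replicate 3, no variant was altered, and H2AFX stood at -0.40 (limma adjusted p = 0.0642), H2AFJ at 0.29 (limma adjusted p = 0.135) and H3F3B at 0.19 (limma adjusted p = 0.189).

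**Figure D4:**
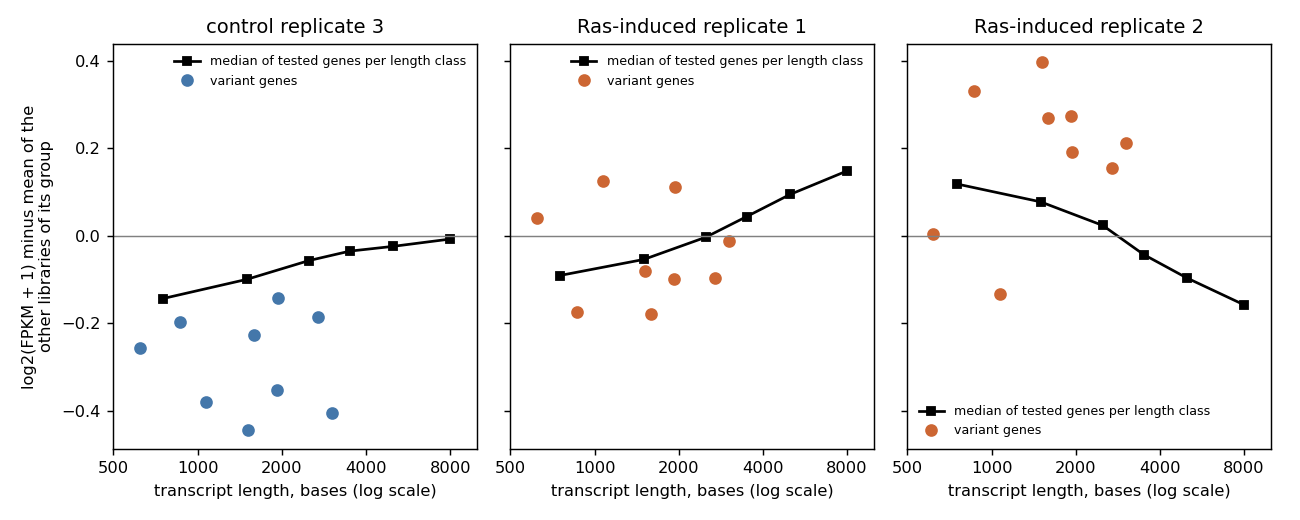
Deviation of control replicate 3 (left), Ras-induced replicate 1 (middle) and Ras-induced replicate 2 (right) from the mean of the other libraries of their group on log2(FPKM + 1) (vertical axis), against transcript length in bases (horizontal log axis), for the 9 variants (coloured points) and as the median of all tested genes in 6 length classes, each drawn at a point within its class (black line). The median runs from -0.14 to -0.0073 in control replicate 3, from -0.09 to 0.15 in Ras-induced replicate 1 and from 0.12 to -0.16 in Ras-induced replicate 2, and the variants in control replicate 3 lie below the line.

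Of the 33 genes listed for placing, exchanging, evicting or reading the variants, all were tested and 6 were altered, a share to be read against 16.7% of all tested genes. Of the 33, 1 was altered and higher and 5 were altered and lower, against 11.0% and 5.67% of all tested genes. Their median log2 difference was 0.0086 beside 0.10. The count of altered genes was 2 without Ras-induced replicate 3 and 3 without control replicate 1 or control replicate 2. ANP32E, the chaperone that takes H2A.Z out of nucleosomes, was the only one altered of 13 H2A.Z exchange genes. It had 142, 131 and 123 FPKM in control and 94.97, 89.5 and 87.6 in Ras-induced cells, clearly apart, and it fell by 0.53 on the log2 scale (SE 0.08, limma adjusted p = 0.00966) and was altered in 14 of 14 alternatives. SRCAP (14.8 and 14.1 FPKM, log2 difference -0.09, interval -0.53 to 0.34, limma adjusted p = 0.755) and EP400 (10.6 and 9.23 FPKM, -0.19, interval -0.51 to 0.13, limma adjusted p = 0.361), the remodelers that insert H2A.Z, did not pass.

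Of 8 H3.3 deposition genes, ASF1A rose and DEK fell. ASF1A, a chaperone that hands H3.3 to HIRA, had 18.3, 19.9 and 17.6 FPKM in control and 26.1, 25.2 and 28.5 in Ras-induced cells, without overlap (log2 difference 0.49, SE 0.09, limma adjusted p = 0.0149, altered in 12 of 14 alternatives). DEK, a chromatin protein that keeps H3.3 in place, had 181.7, 173 and 141 FPKM in control and 116, 129 and 113 in Ras-induced cells (-0.46, SE 0.11, limma adjusted p = 0.0393, altered in 7 of 14). HIRA (19.6 and 20.8 FPKM, 0.08, interval -0.10 to 0.26), DAXX (62.2 and 65.2 FPKM, 0.07, interval -0.11 to 0.24) and ATRX (16.1 and 14.3 FPKM, -0.15, interval -0.53 to 0.24) did not pass in limma, and each changed sign in at least 1 alternative. Of 8 genes of H2A.X signalling only MDC1 was altered, the adaptor that binds phosphorylated H2A.X, with 38.2, 28.2 and 35.4 FPKM in control and 18.8, 17.6 and 17.1 in Ras-induced cells. It fell by 0.88 on the log2 scale (SE 0.12, limma adjusted p = 0.00768), the largest change on the list, and was altered in 14 of 14 alternatives. Of 4 genes tied to linker histones and macroH2A, both HELLS, a remodeler linked to DNA methylation and to macroH2A (9.78 and 5.15 FPKM, -0.81, SE 0.15, limma adjusted p = 0.0176, altered in 12 of 14 alternatives), and PARP1, the enzyme that macroH2A binds (57.4 and 40.9 FPKM, -0.48, SE 0.12, limma adjusted p = 0.0452, altered in 6 of 14), fell. These 5 lower genes (ANP32E, DEK, MDC1, HELLS and PARP1) stood beside mitotic markers of which 9 of 10 did not overlap and were lower (median log2 difference -0.24) and S phase markers of which 4 of 5 tested did so (-0.57), against 12.8% of all tested genes, and the part of those shifts in them was not tested.

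The genes of the histone clusters, taken as every symbol that begins with HIST1H, HIST2H, HIST3H or HIST4H, are the group most like the variants. Most of them are replication-dependent histone genes, but the set also holds pseudogenes and 3 variants of germ cells or restricted tissues (HIST1H1T, HIST1H2BA and HIST3H3, none of which reached 1 FPKM). Of 89 listed only 24 were tested, of which 11 were altered, all higher (9 higher and 1 lower, HIST1H2BH, after upper quartile scaling), against 16.7% of all tested genes altered and 11.0% higher. Their median log2 difference was 0.65, beside 0.10 over all tested genes, with a range from -0.48 to 1.97, and no test compared them with the variants. Since 6 of the 24 had a control mean under 1 FPKM and so passed the filter through the Ras-induced libraries, where they were high, these counts describe the tested genes and not the whole set. With any 1 library left out, 5 to 7 were altered. HIST1H2AC, an H2A gene, had 2.75, 2.68 and 1.83 FPKM in control and 12.0, 16.5 and 9.23 in Ras-induced cells (log2 difference 1.97, SE 0.22, limma adjusted p = 0.00406). HIST1H2BD (3.71 and 14.8 FPKM, 1.74, limma adjusted p = 0.00336) and HIST1H2BK (13.1 and 43.4 FPKM, 1.67, limma adjusted p = 0.00283), both H2B genes, and the linker gene HIST1H1C (5.502 and 13.1 FPKM, 1.13, limma adjusted p = 0.0094) were likewise higher, and all 4 were altered in 14 of 14 alternatives. HIST1H2BJ (4.67 and 13.0 FPKM, 1.37, limma adjusted p = 0.0308) was altered in 9 of 14. Of the 11 altered, 2 had a control mean under 1 FPKM, HIST1H2BC and the pseudogene HIST1H1PS1, and passed the filter only through the Ras-induced libraries. HIST1H1PS1 was listed at 0, 1.25 and 0 FPKM in control and 2.05, 3.12 and 4.85 in Ras-induced cells, and it was altered in 7 of 13 alternatives. Clustered genes with near-identical copies, such as HIST2H2AA3 and HIST2H2AA4, are uncertain.

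Summed FPKM of the clustered genes was 82.9, 90.8 and 66.1 in control and 171, 204 and 143 in Ras-induced cells, which did not overlap. Summed FPKM of the 9 variants was 2168, 2125 and 1813 in control and 2066, 2418 and 2057 in Ras-induced cells, which did. The clustered genes thus held 3.68%, 4.10% and 3.52% of the FPKM of both in control and 7.63%, 7.79% and 6.50% in Ras-induced cells. The libraries were made from poly(A)-selected RNA, and FPKM does not show which 3′ end the transcripts had.

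**Figure D5:**
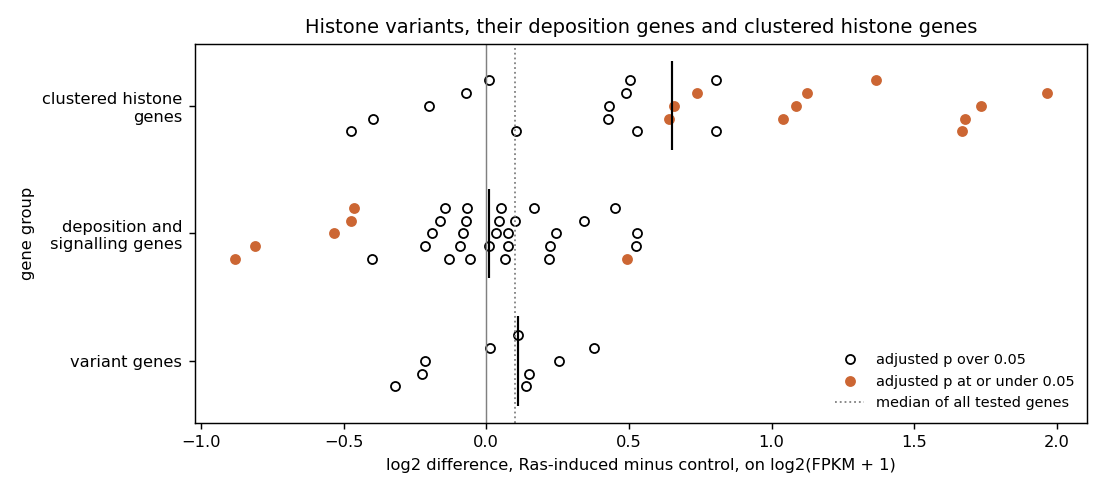
Log2 difference (horizontal axis, Ras-induced minus control on log2(FPKM + 1)) of each tested gene among the 9 variants, the 33 deposition genes and the 24 clustered histone genes; open points have an adjusted p over 0.05, filled ones at or under it, and black lines are group medians. The variants run from -0.32 to 0.38 and the clustered genes from -0.48 to 1.97, with medians of 0.11 and 0.65.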

How the data were processed

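Poly(A) RNA of 6 libraries was sequenced on a NextSeq500 after a TruSeq kit, which the labels do not call stranded. According to the submitters' processing notes reads were trimmed with Trim Galore 0.3.0, aligned to hg19 with TopHat2 and quantified with Cufflinks, and the study's methods name the junctions of Ensembl build 73. The authors deposited FPKM for each gene and library. Their cuffdiff comparison, which holds group FPKM, fold changes, p-values and q-values, was not used. The columns give a group and a number but no sample, so libraries were replicates of their group. A further 18 unnamed columns were not used, and 120 genes with more than 6 values were left out, none of them a variant.

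Since FPKM is not a count, no count model was used. The 13993 genes that averaged 1 FPKM or more entered a two-sided limma fit (version 3.58.1, R 4.3.3, eBayes with a trend) of log2(FPKM + 1), and p-values were adjusted by Benjamini-Hochberg over all of them. The pseudocount understates changes of low genes. Ratios were tested by exact two-sided permutation with adjustment over 6 pairs. Promoter sequences came from RefSeq (GRCh38.p14), and positions, overlaps and transcript lengths from GENCODE 44 lifted to GRCh37. Tables were made with pandas 2.3.3 and scipy 1.17.1 and figures with matplotlib 3.10.9, under Python 3.11.15. On simulated data from the 13993 genes with 200 changed, the limma procedure called 121 of the 200 and 8 unchanged genes. The counts are not split by size of difference, and recovery at sizes like those of the variants was not tested.

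The variants and lists were chosen with earlier results of these data known. A variant and its ratio to another are not reported here; that ratio stays in the adjustment over 6 pairs. Named genes are the 9 variants, HRAS, up to 6 altered genes in each direction of the deposition and clustered lists, and HIRA, DAXX, ATRX, SRCAP, EP400 and ANP32E. H3F3AP4 is named as the highest pseudogene of a variant, and COL1A1, COL1A2, COL3A1, THY1, KRT5, KRT14, HIST1H2BH, HIST1H2BC, HIST1H1T, HIST1H2BA, HIST3H3, CENPA, H3F3C and the overlapping genes were named after their values were seen. Alternatives were a pseudocount of 0.1, a minimum mean of 5 FPKM, no filter, no trend, quantile normalization, upper quartile scaling, a replicate block and each library left out. A correction for transcript length, over the 93.0% of tested genes with a length, was chosen after seeing the data.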

Additional observations from a re-analysis of the deposited data

How the results depend on the processing

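Over 14 alternatives for each variant, 113 of 126 log2 differences kept their direction and their side of the threshold, 9 turned direction and 4 were newly called. The count of altered variants was 0 as deposited, and 1 (H2AFX) after quantile normalization, 1 after upper quartile scaling and 1 after the transcript length correction; leaving out each library in turn gave 0 to 1 (H2AFJ, without control replicate 1). The differences that turned lay close to 0: H2AFZ was -0.0022 after quantile normalization, and H2AFY2 was -0.0884 after quantile normalization, -0.0888 after upper quartile scaling and -0.0332 after the transcript length correction. With each library left out, H2AFY2 ran from -0.0528 to 0.11 and H3F3A from -0.0153 to 0.19. H2AFZ (0.0275 to 0.20), H2AFY (0.033 to 0.21) and H1FX (-0.36 to -0.11) kept their direction there but moved in size. Altered deposition genes numbered 6, and 2 to 5 with a library left out. Altered clustered histone genes numbered 11, all higher, 9 higher and 1 lower (HIST1H2BH) after upper quartile scaling, and 5 of 6 tested with a minimum mean of 5 FPKM, 5 of 77 with no filter, where more genes share the adjustment, and 5 to 7 with a library left out. Only 14 of the 24 tested clustered genes had a length, so their count under the length correction is void; HIST1H2AC, HIST1H2BD, HIST1H2BK, HIST1H2BJ and HIST1H1C had one and were each tested in that fit. All 35 alternatives of the ratios kept their direction. Leaving out each library in turn moved the log2 difference of H3F3B to H3F3A from 0.0458 to 0.22 and that of H2AFY to H2AFY2 from 0.0732 to 0.24. The cause of the other moves was not tested.

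Libraries with the same number did not deviate together over all genes (correlations of -0.003, 0.043 and 0.048). With 3 libraries in a group, this does not settle whether the numbers mark repeats. A replicate block gave 0 altered variants, 7 deposition genes and 9 clustered genes. The block lowered the SE of every variant, for H2AFV from 0.14 to 0.09 (limma adjusted p = 0.141 with the block). Depth is known only between libraries, and 3 against 3 cannot give an exact p under 0.1.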

Other observations

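Of 12 other histone variant genes, 3 of which carry cluster symbols and are counted there too, 10 were under 1 FPKM in every library, most of them genes of germ cells. CENPA, the centromeric H3 variant, had 107.5, 99.6 and 91.6 FPKM in control and 77.9, 85.3 and 76.1 in Ras-induced cells. The groups did not overlap, with a log2 difference of -0.32 (SE 0.09, interval -0.53 to -0.10, limma adjusted p = 0.0564, 0.0147 to 0.172 over 14 alternatives, past 0.05 in 4 of them). H3F3C, a copy of the H3.3 gene that encodes H3.5, had 6.58, 7.71 and 5.59 FPKM in control and 9.46, 9.03 and 10.1 in Ras-induced cells, which did not overlap either. Its log2 difference was 0.47 (SE 0.13, interval 0.17 to 0.78, limma adjusted p = 0.0494), and it passed 0.05 in only 1 of 14 alternatives (0.0434 to 0.151). The H3F3C transcript holds an identical run of 107 bases with that of H3F3B, and 3.34% of the 75-base windows of H3F3B occur in it, so its level is uncertain.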
